A study of Homo sapiens with 6 samples.

Results

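Genes of DNA replication and S phase were examined in SH-SY5Y cells exposed to bilirubin. The group held 36 of the 11963 genes named on the arrays, chosen by symbol from a list of origin, helicase, polymerase, clamp, nucleotide and chromatin assembly genes. Older symbols, such as CDC45L for CDC45, were brought up to date before the match. All 36 genes were measured, by 54 probe sets in all, and the rule used symbols rather than measured values, although the list was drawn up with earlier results of these data known. SH-SY5Y is a human neuroblastoma line used as a neuronal model, and its cells still divide in culture. The treated group (Bf 140 nM, 3 flasks) received free bilirubin at 140 nM, brought in with DMSO, and the control group (DMSO 0.6%, 3 flasks) received only the solvent. Serum was present in both media, and cells were collected after 4 h and hybridised to Affymetrix GeneChip arrays of human transcripts, 1 array per flask. The flasks are given as independent biological replicates of a single cell line, the only biological source here.

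A cell copies its genome in an ordered series of steps. During G1, ORC, CDC6 and CDT1 load the MCM helicase on origins, a step called licensing, and at the G1/S border cyclin E and its kinase, with CDC45 and the GINS complex, set the helicase in motion. Polymerases then copy both strands behind it, while PCNA and its loader RFC hold them on the template. Transcripts of many of these genes rise towards S phase under E2F transcription factors, and they mark dividing cells in tissues and cultures. In bulk RNA, fewer cells in S phase and less transcript per cell cannot be told apart.

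Because E2F factors are the known regulators shared by many of these genes, their promoters were searched for E2F words. The table of RefSeq promoters (GRCh38.p14) covered 250 bases before to 50 bases after each start. It matched 33 of the 36 genes. The 4 words searched, on both strands, were TTTGGCGC, TTTCGCGC, TTTCCCGC and TTTGCCGC. At least 1 of them stood in the promoters of 17 of 33 replication genes (51.5%), against 3.99% of 27305 genes. Among licensing genes it was 6 of 7. A list of further replication genes had a word in 23 of 52 (44.2%), close to the group itself, and mitosis genes in 3 of 29 (10.3%). The pentamer CCAAT on either strand was present in 20 of 33 (60.6%), against 39.7% of all genes. A gene with several promoters counted when any of them held the word. A match is a string of letters, and binding was not measured.

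The stretches below belong to those of the 12 genes described array by array in the results that have a word before the start. MCM6 and E2F1 were added after the search because they hold several words wholly before the start. For MCM7, which has words in 2 places before the start, the stretch nearest the start is shown. Each reads 5′ to 3′ on the strand of its gene, and capitals mark the words or their reverse complements. In MCM6 (chr2:135876502-135876615, minus strand) TTTGGCGC and the reverse complement of TTTCGCGC overlap, and the overlapping pair occurs at both places in capitals. The others are CDT1 (chr16:88803722-88803781, plus strand), MCM7 (chr7:100101398-100101457, minus strand), E2F1 (chr20:33686386-33686445, minus strand), POLE (chr12:132687343-132687402, minus strand), POLA1 (chrX:24693749-24693808, plus strand), TYMS (chr18:657582-657641, plus strand) and UNG (chr12:109098077-109098136, plus strand).
MCM6: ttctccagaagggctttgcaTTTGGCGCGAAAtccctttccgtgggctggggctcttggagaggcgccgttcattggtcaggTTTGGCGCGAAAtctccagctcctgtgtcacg
CDT1: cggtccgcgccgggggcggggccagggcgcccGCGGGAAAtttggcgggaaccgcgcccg
MCM7: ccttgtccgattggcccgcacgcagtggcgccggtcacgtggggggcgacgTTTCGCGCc
E2F1: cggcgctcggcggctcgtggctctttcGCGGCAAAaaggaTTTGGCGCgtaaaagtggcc
POLE: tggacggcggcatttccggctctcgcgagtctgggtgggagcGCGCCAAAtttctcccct
POLA1: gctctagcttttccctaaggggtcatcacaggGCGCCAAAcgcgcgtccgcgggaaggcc
TYMS: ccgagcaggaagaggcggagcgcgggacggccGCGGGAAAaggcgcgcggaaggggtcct
UNG: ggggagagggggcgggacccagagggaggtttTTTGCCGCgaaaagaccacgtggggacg

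Genes with and without a word had close median differences between groups. The median difference, Bf 140 nM minus DMSO 0.6% on the log2 scale, was 0.06 over the 17 genes with a word and 0.04 over the 16 without. These medians are a description, with no test.

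No replication gene differed between Bf 140 nM and DMSO 0.6% at 4 h beyond the spread between arrays. By limma, 0 of the 54 probe sets passed an adjusted p of 0.10, the FDR level used in the study, as did 0% of the 22215 probe sets tested. At an unadjusted p of 0.05 the count was again 0, against 0.0765% of all probe sets, and the smallest unadjusted p was 0.254, for a probe set of CDC6. The share over all probe sets lay far below the 0.05 that evenly spread p values would give. A count of 0 was therefore likely beforehand under this unpaired fit, and it tells little. With each gene read from its brightest probe set, the groups overlapped in all 36 genes, while 2.67% of all genes had groups that did not overlap (1.84% higher and 0.828% lower in Bf 140 nM). Every difference was smaller than the pooled SD of its gene. The differences ran from -0.15 for RFC5 to 0.19 for RFC2, with a median of 0.05 against 0.03 over all genes. They were above 0 in 25 of 36 genes, near the 63.7% of all genes. After quantile normalization 20 of 36 were above 0 (47.8% of all genes), and after centring on the array medians 21 of 36 (49.5% of all genes), so the share above 0 followed the scaling in the group as in all genes. The median of the group stayed above 0 under both, at 0.01 and 0.02. It turned with single arrays, and was -0.02 without DMSO 0.6% replicate 3, -0.03 without Bf 140 nM replicate 3 and 0.10 without Bf 140 nM replicate 2.

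The arrays set a bound on what could have been missed. The 95% confidence interval stayed within a 1.5-fold change either way in 25 of 36 genes, against 88.1% of all genes. It stayed within 2-fold in 35 of 36, against 98.9%. The exception was RFC5, a subunit of the clamp loader, whose ratio had an interval of 0.413 to 1.98. With the replicate number as a block in the limma fit, which removes what same-numbered arrays share, the intervals were narrower, and those of all 36 genes stayed within 1.5-fold (98.6% of all genes), with a median standard error of 0.13. Without the block, intervals of the replication genes were wider than those of all genes, with a median standard error of 0.16 against 0.13. This was not particular to them. The median standard error was 0.17 for further replication genes, 0.21 for mitosis genes and 0.17 for genes that restrain the cycle. The median SD within a group was 0.22 in Bf 140 nM and 0.19 in DMSO 0.6%, where all genes had 0.16 and 0.13. Values are on a variance-stabilised scale, which compresses dim genes, but the brightest probe sets of all 36 genes lay above the median probe set, between 8.82 and 13.09.

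**Figure D1:**
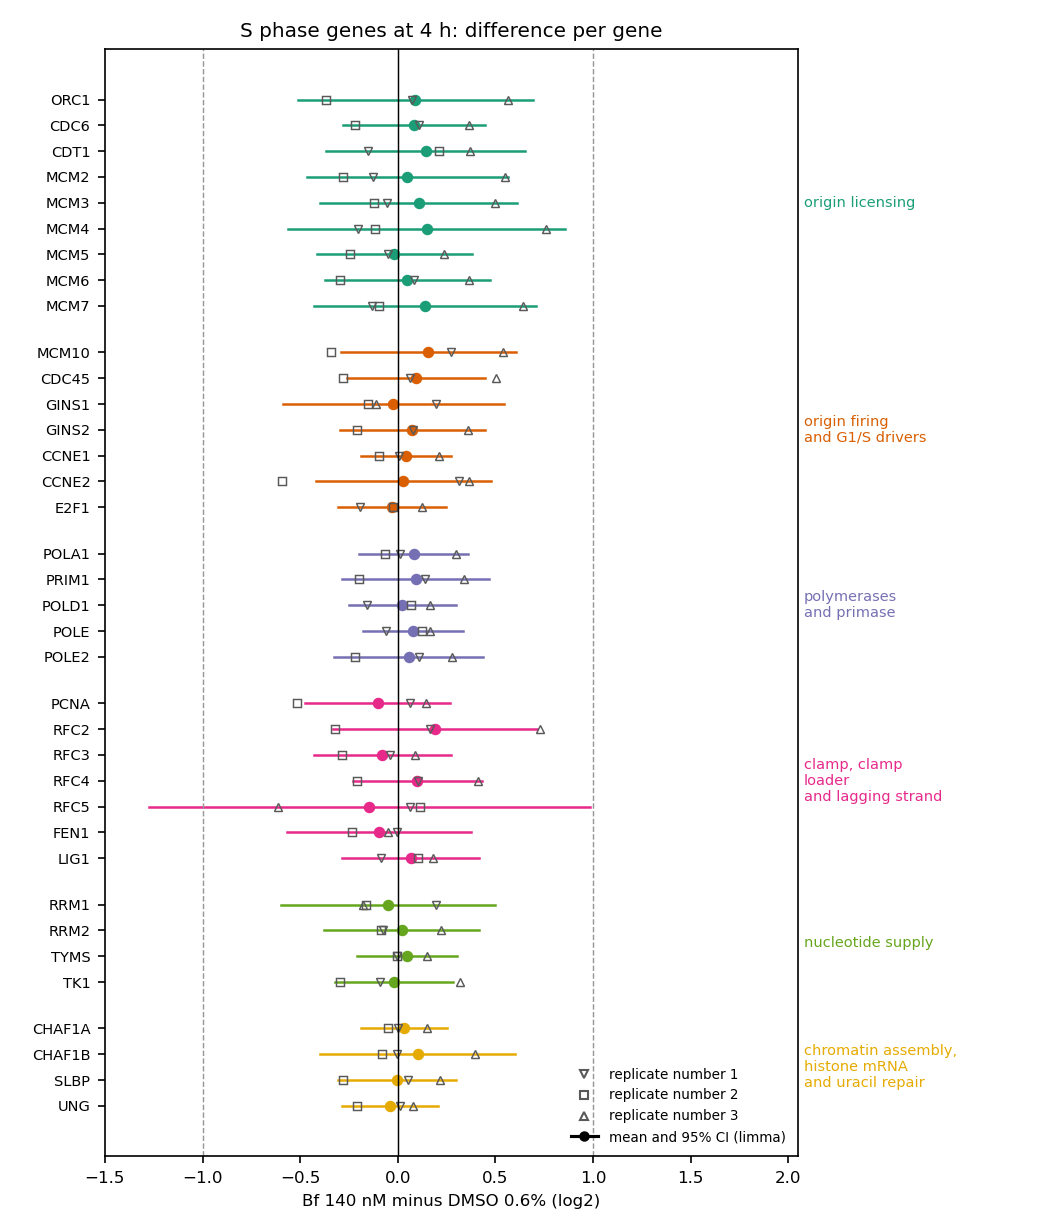
Difference Bf 140 nM minus DMSO 0.6% (log2, horizontal axis) of the 36 genes, grouped by role. Filled circles and bars are the limma difference and its 95% confidence interval, open symbols the difference within each replicate number, and dashed lines a 2-fold change. With each gene read from its brightest probe set, every interval crosses 0, and that of RFC5 alone reaches past 2-fold. The triangles of replicate number 3 lie above 0 in 32 genes and the squares of number 2 below 0 in 31.

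What the replication genes shared was their variation from array to array. Replicate numbers 1 to 3 are common to both groups. In number 2 the difference was below 0 in 31 of 36 genes (53.5% of all genes), with a median of -0.20. In number 3 it was above 0 in 32 of 36 (59.3% of all genes), with a median of 0.29. The difference was highest in number 3 for 32 of 36 genes, against 42.9% of all genes. No gene was above 0 in all 3 numbers (8.56% of all genes), and only FEN1 was below 0 in all 3 (4.39% of all genes), by as little as -0.00 in number 1. Over all genes the medians of numbers 2 and 3 were -0.02 and 0.06. In number 1 they did not lean either way, with 19 of 36 above 0 and a median of 0.01. The replication genes thus differed in opposite directions in numbers 2 and 3.

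The arrays behind this were Bf 140 nM replicate 2, Bf 140 nM replicate 3 and DMSO 0.6% replicate 3. Relative to each gene's mean over the 6 arrays, the median level was -0.18 in Bf 140 nM replicate 2, 0.14 in Bf 140 nM replicate 3 and -0.13 in DMSO 0.6% replicate 3, and between 0.01 and 0.04 in the other 3 arrays. The lowest array was DMSO 0.6% replicate 3 for 17 genes (30.5% of all genes) and Bf 140 nM replicate 2 for 16 (21.3% of all genes). The highest was Bf 140 nM replicate 3 for 15 (23.6% of all genes). These ranks depend on reading the brightest probe set. Over the 54 probe sets, DMSO 0.6% replicate 3 was lowest in 30 (31.9% of all probe sets). Bf 140 nM replicate 2 was lowest in 17 (18.9% of all probe sets). Their median levels were then -0.20 and -0.08. A measure of RNA quality moved with one of these arrays. The 3′ minus 5′ difference of the beta-actin control probe sets, which grows as transcripts are shortened, was 0.24, 0.49 and 0.89 in the Bf 140 nM replicates and 0.11, 0.32 and 2.21 in the DMSO 0.6% replicates. For GAPDH it was 0.20, 0.22 and 0.38 against 0.19, 0.10 and 1.30. DMSO 0.6% replicate 3 had the largest value by both, and Bf 140 nM replicate 2 lay within the range of the other arrays. Between groups the exact two-sided permutation p was 0.9 for beta-actin and 1 for GAPDH, with 0.1 the smallest that 3 against 3 arrays allow. When the beta-actin difference was fitted beside the group, the median of the replication genes was 0.01, and 22 of 36 were above 0 (62.4% of all genes). Because that difference was far larger on DMSO 0.6% replicate 3 than on any other array, this fit mostly sets that array apart.

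**Figure D2:**
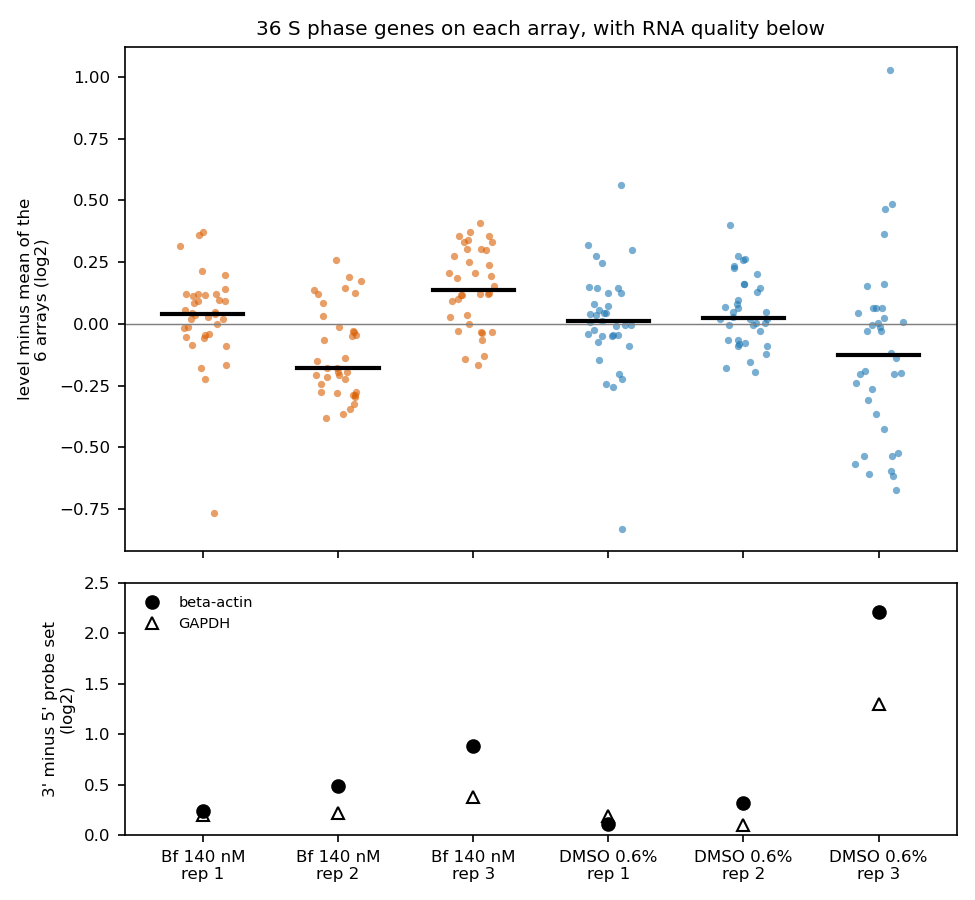
Upper panel: level of each of the 36 genes on each array minus its mean over the 6 arrays (log2), 1 point per gene, with bars at the medians. Lower panel: 3′ minus 5′ difference (log2) of the beta-actin and GAPDH control probe sets on the same arrays, highest at 2.21 and 1.30 in DMSO 0.6% replicate 3. Points spread most widely on that array. With each gene read from its brightest probe set, as here, the median is lowest, at -0.18, in Bf 140 nM replicate 2.

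Licensing genes, which load the helicase, had differences from -0.02 to 0.15, with a median of 0.09, and 8 of 9 were above 0. CDT1, which brings MCM to origins, read 8.95, 9.08 and 8.66 in Bf 140 nM replicates 1 to 3 and 9.10, 8.87 and 8.29 in DMSO 0.6% replicates 1 to 3. MCM7, a subunit of the helicase ring, read 12.25, 12.26 and 12.10 in Bf 140 nM and 12.38, 12.36 and 11.46 in DMSO 0.6%. In both genes DMSO 0.6% replicate 3 was the low array and the other 2 controls lay among or above the treated arrays. The differences were 0.14 (SE 0.22) for CDT1 and 0.14 (SE 0.24) for MCM7, each with an adjusted p of 1 by limma. Without that array they were -0.09 and -0.17. DMSO 0.6% replicate 3 was the lowest array for 7 of the 9 licensing genes, and their median on it was -0.54 relative to the 6-array mean, the lowest of the 6 role groups. The exceptions were MCM5 and MCM6, lowest in Bf 140 nM replicate 2. ORC1, the largest subunit of the origin recognition complex, differed by 0.09 (SE 0.26), and CDC6, which acts with it, by 0.08 (SE 0.16). MCM2, MCM3 and MCM4 differed by 0.05, 0.11 and 0.15.

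Genes that fire origins or drive entry into S phase ran from -0.03 to 0.16, with 5 of 7 above 0. MCM10, a factor of helicase activation, read 10.75, 10.24 and 10.55 in Bf 140 nM and 10.48, 10.58 and 10.01 in DMSO 0.6%. CDC45, a cofactor of the moving helicase, read 10.09, 9.83 and 10.34 against 10.03, 10.11 and 9.84. The high and low arrays were spread over both groups. The differences were 0.16 (SE 0.19) for MCM10 and 0.09 (SE 0.15) for CDC45, with adjusted p values of 1 by limma. MCM10 stood at -0.02 without DMSO 0.6% replicate 3, and CDC45 at -0.03 without Bf 140 nM replicate 3. The cyclins CCNE1 and CCNE2 differed by 0.04 (SE 0.10) and 0.03 (SE 0.19). E2F1, the transcription factor itself, differed by -0.03 (SE 0.12), with a range of 9.28 to 9.65 over all 6 arrays. The GINS subunits GINS1 and GINS2 differed by -0.02 and 0.07.

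The polymerases and primase were all above 0, by 0.02 to 0.09, and all 5 intervals lay inside 1.5-fold. POLE, the catalytic subunit of the leading strand polymerase, read 9.38, 9.48 and 9.33 in Bf 140 nM and 9.44, 9.36 and 9.17 in DMSO 0.6%. POLA1, which with primase starts new strands, read 9.53, 9.51 and 9.51 against 9.52, 9.57 and 9.21. The 3 treated arrays of POLA1 lay within an SD of 0.01, and the lowest value was again DMSO 0.6% replicate 3. The differences were 0.08 (SE 0.11) for POLE and 0.08 (SE 0.12) for POLA1, with adjusted p values of 1 by limma. Without that array POLE stood at 0.00 and POLA1 at -0.03. PRIM1, POLD1 and POLE2 differed by 0.09, 0.02 and 0.06.

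Clamp and lagging strand genes had the lowest median of the 6 role groups, -0.08, with 3 of 7 above 0. This rests on the brightest probe sets, since the dimmer sets of RFC3, RFC5 and FEN1 were all above 0. RFC2 read 11.06, 10.80 and 10.96 in Bf 140 nM and 10.90, 11.12 and 10.23 in DMSO 0.6%. RFC4 read 11.15, 10.84 and 11.33 against 11.05, 11.05 and 10.92. Both are subunits of the clamp loader, and in both the treated arrays spanned at least 1 control array. The differences were 0.19 (SE 0.22) for RFC2 and 0.10 (SE 0.14) for RFC4, with adjusted p values of 1 by limma. RFC2 stood at -0.07 without DMSO 0.6% replicate 3, and RFC4 at -0.01 without Bf 140 nM replicate 3. PCNA, the sliding clamp, differed by -0.10 (SE 0.16), and by -0.52 within number 2. FEN1, which trims the flaps of Okazaki fragments, and LIG1, which joins them, differed by -0.10 and 0.07.

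Genes of nucleotide supply differed by -0.05 to 0.05. TYMS, thymidylate synthase, read 13.03, 13.02 and 13.28 in Bf 140 nM and 13.04, 13.02 and 13.13 in DMSO 0.6%. RRM1, the large subunit of ribonucleotide reductase, read 11.28, 11.01 and 11.64 against 11.08, 11.18 and 11.82. Here both arrays of number 3 were the high ones. The differences were 0.05 (SE 0.11) for TYMS and -0.05 (SE 0.23) for RRM1, with adjusted p values of 1 by limma. TYMS stood at -0.04 without Bf 140 nM replicate 3. RRM1 stood at 0.10 without Bf 140 nM replicate 2 and at 0.18 without DMSO 0.6% replicate 3. RRM2 and the thymidine kinase TK1 differed by 0.02 and -0.02.

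Of the genes of chromatin assembly, histone mRNA and uracil repair, 2 of 4 were above 0. CHAF1B, a subunit of the histone chaperone CAF-1, read 9.22, 9.28 and 8.96 in Bf 140 nM and 9.23, 9.36 and 8.57 in DMSO 0.6%. UNG, which removes uracil from DNA, read 9.89, 9.69 and 9.97 against 9.88, 9.90 and 9.89. The 3 controls of UNG lay within an SD of 0.01, inside the range of the treated arrays. The differences were 0.10 (SE 0.21) for CHAF1B and -0.04 (SE 0.11) for UNG, with adjusted p values of 1 by limma. CHAF1B stood at -0.14 without DMSO 0.6% replicate 3, and UNG at 0.04 without Bf 140 nM replicate 2. SLBP, which binds the stem loop of histone mRNAs, differed by -0.00, and CHAF1A by 0.03.

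**Figure D3:**
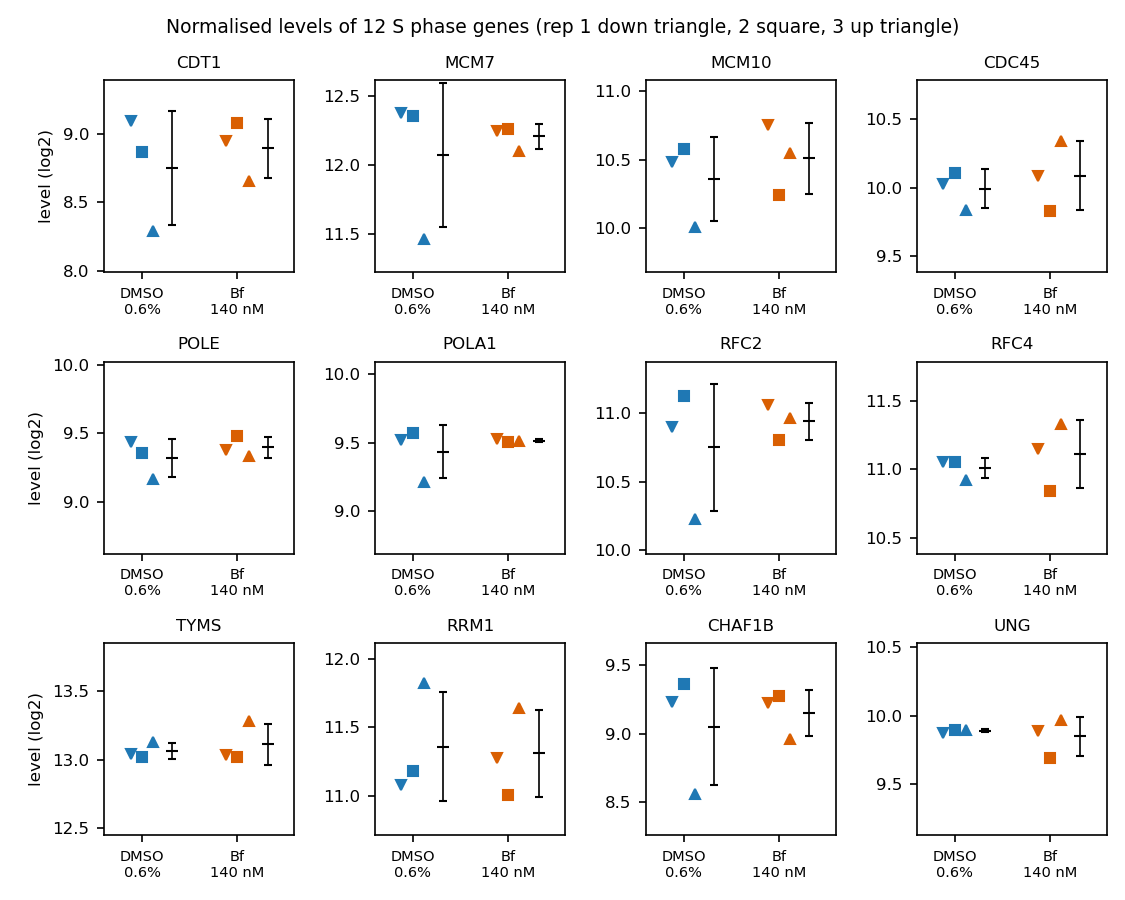
Normalised level (log2, every panel spanning the same width) of 12 genes, the 2 with the lowest unadjusted p within each role group. Symbols mark the replicate number, and bars give mean ± SD (n = 3). DMSO 0.6% replicate 3, the upward blue triangle, is the lowest of the 6 arrays for CDT1, MCM7, MCM10, POLE, POLA1, RFC2 and CHAF1B, and the highest for RRM1.

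Different probe sets of the same gene disagreed, mainly on DMSO 0.6% replicate 3. Of the 36 genes, 14 had at least 2 probe sets, and these shared a sign in 7, close to the 47.3% of all such genes. Their differences were 0.16 apart in the median gene, against 0.11 over all 4310 genes with several probe sets. Within numbers 1, 2 and 3 the median gap was 0.08, 0.11 and 0.35 (0.16, 0.18 and 0.26 over all such genes). Without DMSO 0.6% replicate 3 the median gap was 0.12 (0.13 over all such genes).

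RRM1 was an example. Its brighter probe set stood 0.58 above the mean of the other 5 arrays on DMSO 0.6% replicate 3, while its dimmer probe set stood at -1.48 from that mean. The former gave a difference of -0.05 (SE 0.23) and the latter 0.36 (SE 0.42). The same gene was read as high by the former and low by the latter on that array. RFC3 had probe sets at 0.19 and -1.54 on that array, and differences of -0.08 and 0.32. FEN1 had probe sets at 0.43 and -0.93, and differences of -0.10 and 0.27, so its place below 0 in all 3 numbers rested on the choice of probe set. These 3 genes were singled out after their values were seen.

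Of the genes with 3 or more probe sets, RFC5 spread widest, with 1.23, -0.01 and -1.13 on DMSO 0.6% replicate 3 and differences of -0.15, 0.14 and 0.32. The 4 probe sets of MCM4 all stood below the other arrays there, from -1.11 to -0.25, and their differences ran from -0.02 to 0.19. CHAF1A gave -0.04, 0.08 and -0.63, with differences of 0.03, 0.13 and 0.16. Over all 54 probe sets, 19 lay more than 0.5 below the other arrays on DMSO 0.6% replicate 3 (35.2%), against 9.91% of all probe sets. In 12 of the 14 genes the brightest probe set stood higher on that array than the dimmest, against 55.0% of all such genes. The 3′ to 5′ marks of this array are given above, and where each probe set lies along its transcript was not examined.

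**Figure D4:**
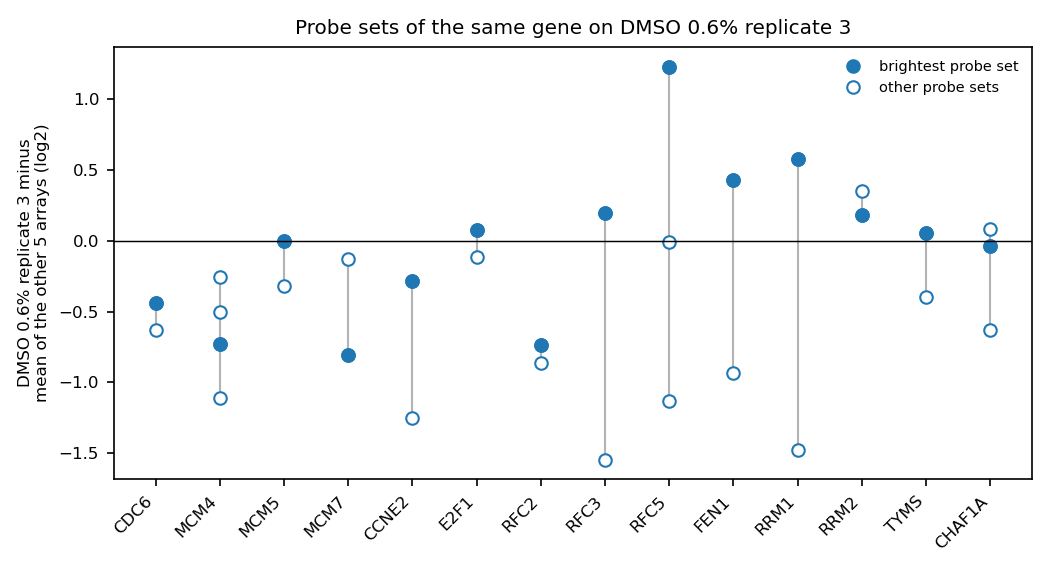
Level on DMSO 0.6% replicate 3 minus the mean of the other 5 arrays (log2) for each probe set of the 14 genes with more than 1. Filled circles are the brightest probe set of the gene and open circles the others. Sets of RFC3, RFC5, FEN1 and RRM1 lie on both sides of 0, down to -1.54 and up to 1.23.

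Other genes of the cell cycle were read beside the group. Of 65 further replication genes 56 were measured, and 0 passed the adjusted threshold by limma. Their median difference was 0.05, with 37 of 56 above 0, and their medians in numbers 1 to 3 were 0.10, -0.24 and 0.26. RNASEH2A, a subunit of ribonuclease H2, differed by 0.26 (SE 0.16). CLSPN, a checkpoint mediator, was the only gene of these lists with groups that did not overlap, with 7.19, 7.25 and 7.12 in Bf 140 nM against 6.90, 7.09 and 7.07. It lay below the median probe set, and its difference of 0.16 (SE 0.10) had an adjusted p of 1 by limma. Mitosis genes, with 35 of 36 measured, had a median of 0.08 and medians of 0.12, -0.19 and 0.23 in numbers 1 to 3. They stood high in both arrays of number 1, at 0.22 in Bf 140 nM and 0.16 in DMSO 0.6% relative to the 6-array mean. The 36 replication genes together stood at 0.04 and 0.01 there, but the licensing genes among them at 0.12 and 0.25. These contrasts were not tested. The kinase AURKB and the kinesin KIF20A differed by 0.32 (SE 0.22) and 0.29 (SE 0.24). Genes that restrain the cycle, with 15 of 17 measured, had a median of 0.06 and medians of 0.10, -0.16 and 0.21. GADD45A, induced by DNA damage, differed by 0.25 (SE 0.17), and the repressor E2F4 by -0.14 (SE 0.13). The alternation between numbers 2 and 3 was therefore present in all 3 lists, and it was not limited to genes of the cell cycle, as the markers of cell type show. None of their genes passed the adjusted threshold or an unadjusted p of 0.05.

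**Figure D5:**
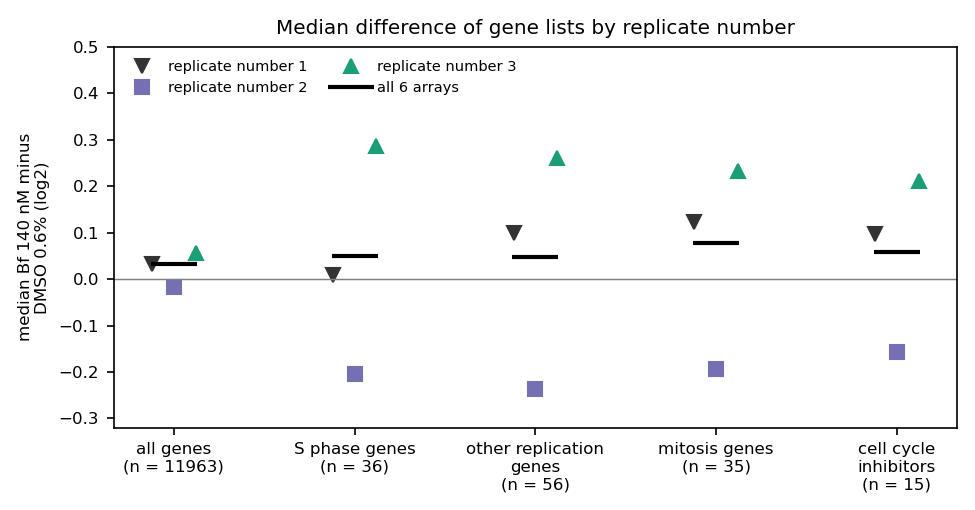
Median difference Bf 140 nM minus DMSO 0.6% (log2) of all genes, the 36 S phase genes and 3 other cell cycle lists. Symbols are the medians within each replicate number, and bars those over all 6 arrays. In the 4 cell cycle lists number 2 lies between -0.24 and -0.16 and number 3 between 0.21 and 0.29, while the medians of all genes stay between -0.02 and 0.06.

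Over all probe sets, correlations between arrays were 0.971 to 0.996, and DMSO 0.6% replicate 3 had the lowest array median, 7.85. Of 12 measured markers of noradrenergic neuroblasts, the cell type of SH-SY5Y, 10 lay above the median probe set, with GATA3 and DBH at 13.23 and 12.79. HAND2 and TH did not. The mean of these markers was 11.22 to 11.58 per array. They alternated as the replication genes did, with medians of 0.03, -0.12 and 0.28 in numbers 1 to 3. In number 2 the difference was below 0 in 11 of 12, in number 3 it was above 0 in 10 of 12, and DMSO 0.6% replicate 3 was the lowest array for 7. Of 13 mesenchymal or Schwann-like markers 7 lay above the median probe set, with a list mean of 8.55 to 8.74 per array. Of these, VIM stood at 13.76, above every noradrenergic marker, and COL3A1 and FN1 at 10.26 and 10.11. The medians of the mesenchymal list in numbers 1 to 3 were -0.00, -0.03 and -0.07, without that alternation. The part of cell state in the values of the replication genes was not tested.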

How the data were processed

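Total RNA from 6 flasks was hybridised to 6 arrays, 3 per group. The authors computed cell intensities with Affymetrix GCOS and applied variance-stabilising normalisation (justvsn) in R version 2.5.0, and the deposited values are normalised log2 levels per probe set. The scale is a generalised log2, taken as base 2 because the highest value was 15.2, and it understates differences of dim probe sets. The step that combined probes into sets is not stated in the labels or methods. The authors then kept sets with Present calls and ran SAM. Detection calls were not used here, so all 22215 probe sets other than 62 controls were tested. Arrays carry no read depth, and their number limits the precision.

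Probe sets were named from the platform annotation, updated through RefSeq Entrez identifiers. Of them 19064 had 1 symbol, 1043 had several and 2108 had none. A gene was read from its probe set with the highest mean. Bf 140 nM minus DMSO 0.6% was fitted in limma 3.58.1 under R 4.3.3, unpaired and two-sided, with Benjamini-Hochberg adjustment over all probe sets at 0.10. The fit was tested on simulated data with independent noise, which lacked the variation that same-numbered arrays share here. Genes named with each array's value were the 2 with the lowest unadjusted p per role group. Those named for probe sets had 3 or more, and those of other lists were the 2 with the lowest unadjusted p. The members and lists were chosen with earlier results of these data known.

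Both groups carry replicate numbers 1 to 3. Over all probe sets, deviations from the group means correlated between same-numbered arrays by 0.60, 0.23 and 0.57, each above the minimum of 0.1, so the numbers were taken to pair the arrays, and the replicate block was an alternative. Other alternatives were quantile normalisation, median centring, a filter on dim probe sets, an intensity trend, the beta-actin difference as covariate, other rules for probe sets and leaving out arrays.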

Additional observations from a re-analysis of the deposited data

How the results depend on the processing

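With the replicate block, 0 replication probe sets and 0 of all 22215 passed an adjusted p of 0.10 by limma, and 0 replication probe sets had an unadjusted p under 0.05. The latter count is given without the share over all probe sets, so it cannot be set against a background. The pairing changed no call. Read from their brightest probe sets, all 36 replication genes had intervals within 1.5-fold with the block against 25 without it, though these may be too narrow, as described above. The counts of 0 were unchanged under every alternative for which they were computed, and the lowest adjusted p of the 12 named genes under any alternative was 0.998. The number of replication genes with groups that did not overlap was 0 as reported and 1 after quantile normalisation (UNG, lower, against 3.55% of all genes). It ran from 0 to 4 when 1 array was left out. It was 4 without Bf 140 nM replicate 2 (GINS2, MCM6, PRIM1 and RFC4, higher, against 19.2% of all genes) and 4 without Bf 140 nM replicate 3 (E2F1, FEN1, RFC3 and RRM2, lower, against 9.92%). It was 1 without DMSO 0.6% replicate 2 (CCNE2, higher) and 1 without DMSO 0.6% replicate 3 (MCM7, lower), against 10.8% and 8.05%. Without both arrays of number 2, chosen after seeing the data, it was 10, all higher, against 32.5% of all genes. Without both arrays of number 3, also chosen later, it was 6, all lower, against 18.7%.

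The median difference of the replication genes lay between -0.03 and 0.10 with 1 array left out, and was 0.12 without number 2 and -0.07 without number 3. The SD between the medians of the 3 numbers was 0.25. It comes from the same arrays, so it cannot show whether these moves are small. Above 0 were 33 of 36 genes without number 2 (61.96% of all genes) and 6 of 36 without number 3 (51.18%). These directions follow largely from the arrays left out. Most replication genes were below 0 in number 2 and above 0 in number 3. With the beta-actin covariate MCM7 stood at -0.011, CHAF1B at -0.0218 and RRM1 at 0.0752, opposite in sign to the reported values, and with the median over probe sets RRM1 stood at 0.15. With 1 array left out the lowest and highest values were -0.0889 and 0.32 for CDT1, -0.17 and 0.30 for MCM7, -0.0168 and 0.29 for MCM10, -0.0316 and 0.22 for CDC45, -0.0291 and 0.15 for POLA1, -0.0707 and 0.37 for RFC2, -0.0122 and 0.24 for RFC4, -0.039 and 0.0922 for TYMS, -0.21 and 0.18 for RRM1, -0.14 and 0.26 for CHAF1B, and -0.10 and 0.0378 for UNG. The cause was not tested.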
